A study of Homo sapiens with 20 samples.

Results

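In 2 established human cell lines from colon adenocarcinoma, LOVO and RKO, 2687 regions were open in every untreated control list and had no peak in the untreated METTL3 knockdown list of either line. They were chosen from the deposited peak lists: each is an interval of the merged LOVO shControl list on chromosomes 1 to 22 that shares at least 1 bp with the other 3 untreated shControl lists and none with either untreated shMETTL3 list. The merged LOVO shControl list holds 33474 intervals, 32735 of them on these chromosomes, and 11453 of those were open in all 4 untreated shControl lists. The 2687 regions, called the missing regions here, made up 23.5% of the 11453. A region without an interval had no called peak, which is not the same as closed chromatin.

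Open chromatin was read by ATAC-seq, in which a transposase cuts and tags accessible DNA. Cells of both lines expressed a short hairpin RNA, either against METTL3 (shMETTL3) or a control hairpin (shControl), and were given olaparib or left untreated. Per line the labels list 2 samples each of shMETTL3 with olaparib, untreated shMETTL3 and shControl with olaparib, and 4 of untreated shControl, 2 of which carry a second batch name. The files hold 10 peak lists, 1 per group except for untreated shControl, which has a merged list and a scored list in each line. Every interval of the 6 scored lists, untreated shControl and the olaparib groups alike, is named as a peak of replicate 1, and whether replicate 2 entered those lists is not stated. The merged lists name no replicate. With 1 list of a form per group there was no replicate error and no test, and the 95% exact intervals given with shares cover counting error only. The dose and time of olaparib and the number of hairpins or clones are not given in the sources used here.

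METTL3 is the catalytic subunit of the complex that writes N6-methyladenosine (m6A) on nascent RNA, chromatin-bound repeat transcripts among them. In mouse embryonic stem cells, m6A on such transcripts has been tied to how open the surrounding chromatin is, and the title of the series names RNA of the LINE1 retrotransposon. Olaparib traps poly(ADP-ribose) polymerases on damaged DNA and is most toxic to cells that cannot repair breaks by homologous recombination. Open regions of a cell line are mainly promoters, which sit at gene starts and are open in most cell types, and distal elements such as enhancers, which vary more between cell types.

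Missing regions that lie on a promoter window can be read as sequence. RefSeq promoter windows (GRCh38.p14, the assembly that hg38 names), which run from 250 bases before to 50 bases after a transcription start, met the missing regions in 886 cases with at least 150 bases covered. The 5 below belong to the missing regions with the highest control scores among those named in this text that lie on such a window, and are shown 5′ to 3′ on the strand of the gene. Capitals mark matches, on either strand, to CCGGAAG (ETS factors), TGACGTCA (the cyclic AMP response element, CRE), AAGATGGC (YY1), GCATGCGC (the core of the NRF1 site) or CCAATCA (NF-Y, the factor that binds CCAAT boxes). PTTG1 encodes securin, which keeps sister chromatids from separating until anaphase. MRPL27, a mitochondrial ribosomal protein gene, shares its start with EME1, which encodes a subunit of a nuclease that cuts recombination intermediates. MICAL3 encodes an actin-oxidising enzyme, ACIN1 a protein of the splicing machinery (its window lies inside the gene, and the region counts as gene body below) and CCNA2 cyclin A2, which drives replication and entry into mitosis.

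PTTG1, chr5:160421660-160421959, plus strand: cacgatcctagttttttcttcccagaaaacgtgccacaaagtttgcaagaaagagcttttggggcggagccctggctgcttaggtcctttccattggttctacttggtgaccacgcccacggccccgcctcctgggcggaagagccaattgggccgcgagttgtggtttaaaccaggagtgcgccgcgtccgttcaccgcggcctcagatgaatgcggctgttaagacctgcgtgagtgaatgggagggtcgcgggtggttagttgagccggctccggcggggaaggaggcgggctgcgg
MRPL27, chr17:50373135-50373434, minus strand: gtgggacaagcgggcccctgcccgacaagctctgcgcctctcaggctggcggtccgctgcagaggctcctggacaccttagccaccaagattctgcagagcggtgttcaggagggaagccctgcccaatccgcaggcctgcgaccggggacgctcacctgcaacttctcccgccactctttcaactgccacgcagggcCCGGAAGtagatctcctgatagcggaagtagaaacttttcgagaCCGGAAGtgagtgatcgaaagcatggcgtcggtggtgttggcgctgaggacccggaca
MICAL3, chr22:18024512-18024811, minus strand: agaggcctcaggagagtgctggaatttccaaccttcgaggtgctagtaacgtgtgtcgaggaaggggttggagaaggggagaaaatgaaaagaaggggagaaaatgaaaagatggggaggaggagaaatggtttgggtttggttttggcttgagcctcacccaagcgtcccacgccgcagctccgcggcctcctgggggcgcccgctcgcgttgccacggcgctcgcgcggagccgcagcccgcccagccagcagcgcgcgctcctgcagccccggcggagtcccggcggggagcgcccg
ACIN1, chr14:23071520-23071819, minus strand: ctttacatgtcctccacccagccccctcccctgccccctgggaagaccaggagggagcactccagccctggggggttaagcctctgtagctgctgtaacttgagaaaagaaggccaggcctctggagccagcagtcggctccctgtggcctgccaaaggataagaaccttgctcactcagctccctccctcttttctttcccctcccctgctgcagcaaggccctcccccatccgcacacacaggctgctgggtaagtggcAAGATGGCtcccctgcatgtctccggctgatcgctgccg
CCNA2, chr4:121823834-121824133, minus strand: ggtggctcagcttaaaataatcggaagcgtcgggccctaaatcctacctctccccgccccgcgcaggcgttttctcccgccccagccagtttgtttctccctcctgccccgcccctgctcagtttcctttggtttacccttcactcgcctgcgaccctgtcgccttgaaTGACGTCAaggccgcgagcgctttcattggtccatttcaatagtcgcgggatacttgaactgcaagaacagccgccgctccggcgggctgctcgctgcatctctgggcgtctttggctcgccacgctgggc

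None of these 5 windows holds CCAATCA. PLK1, a kinase of mitotic entry and spindle formation, is shown as a missing region with that motif, and BPGM, a gene of red cell glycolysis, and RARS2, the gene of the mitochondrial arginine tRNA ligase, as regions with the motif that had a peak in both untreated shMETTL3 lists. These 3 were chosen after their values were seen.

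PLK1, chr16:23678639-23678938, plus strand: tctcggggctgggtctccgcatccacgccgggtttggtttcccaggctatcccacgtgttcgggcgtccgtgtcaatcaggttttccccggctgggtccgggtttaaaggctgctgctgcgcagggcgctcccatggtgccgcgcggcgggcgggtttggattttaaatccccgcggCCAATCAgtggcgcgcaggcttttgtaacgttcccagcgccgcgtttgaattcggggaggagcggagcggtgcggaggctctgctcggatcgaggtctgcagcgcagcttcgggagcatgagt
BPGM, chr7:134646603-134646902, plus strand: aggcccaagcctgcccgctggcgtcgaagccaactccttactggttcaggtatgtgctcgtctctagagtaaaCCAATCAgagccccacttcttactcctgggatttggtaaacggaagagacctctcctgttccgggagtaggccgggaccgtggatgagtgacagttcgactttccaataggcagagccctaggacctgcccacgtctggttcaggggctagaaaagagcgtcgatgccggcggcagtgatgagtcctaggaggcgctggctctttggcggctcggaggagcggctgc
RARS2, chr6:87589938-87590237, minus strand: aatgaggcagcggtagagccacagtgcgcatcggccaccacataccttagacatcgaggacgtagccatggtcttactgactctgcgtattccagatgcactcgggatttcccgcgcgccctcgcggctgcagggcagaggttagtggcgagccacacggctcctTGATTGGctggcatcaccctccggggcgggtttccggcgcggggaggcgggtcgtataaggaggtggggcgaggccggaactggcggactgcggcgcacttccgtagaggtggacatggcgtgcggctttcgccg

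PLK1 had no interval in untreated shMETTL3 of either line, while BPGM and RARS2 had intervals of 566 and 665 bp in untreated LOVO shMETTL3 and of 339 and 158 bp in untreated RKO shMETTL3. The missing region at PLK1 was 1327 bp wide in the merged LOVO shControl list, wider than those at BPGM (659 bp) and RARS2 (723 bp). The lower of its peak scores in the scored LOVO and RKO shControl lists was 7.65, below that of BPGM (21.6) and RARS2 (19.8). This value, the smaller of a region's 2 control scores, ranks regions in what follows.

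Of the 11453 control regions, 31.0% had no peak in untreated LOVO shMETTL3, 54.8% none in untreated RKO shMETTL3 and 23.5% none in either, which is the rule itself. The other regions fall into 867 with an shMETTL3 peak in RKO only, 3594 with one in LOVO only and 4305 with one in both lines. These 4305, called the kept regions, are the comparison used below. Few regions lay near the edge of the rule. The nearest untreated shMETTL3 interval lay at a median distance of 33.7 kb in LOVO and 66.3 kb in RKO, and only 20 and 19 of the missing regions had one within 500 bp. The closest lay 6 bp away in LOVO and 1 bp away in RKO, and the slightest contact of a region outside the set was 111 bp in LOVO and 11 bp in RKO. Nearly every missing region was a separate place in both lines, since 2585 matched 1 merged RKO shControl interval of their own, 100 matched several and 2 shared one.

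As a group the missing regions were narrower and weaker in the controls than the kept regions. Their median width in the merged LOVO shControl list was 576 bp (quartiles 388 and 890 bp, range 160 to 2435 bp), against 956 bp (quartiles 768 and 1177 bp) for the kept regions. Over the whole of that list the median width was 571 bp, close to that of the missing regions. The median peak score of the missing regions was 8.85 in the scored LOVO shControl list and 7.14 in the RKO one, against 13.9 and 9.42 for the kept regions. The score is the authors' own value per peak. Within those lists the missing regions' medians stood near the middle, at percentile 49.1 in LOVO and 46.3 in RKO, and those of the kept regions at 84.0 and 73.7. The untreated shMETTL3 lists were the shortest of each line, with 16417 intervals in LOVO and 6916 in RKO, and the part of list length in the membership was not tested.

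Width followed the split closely. Of the control regions up to 400 bp wide, 61.9% were missing regions and 5.80% kept ones. Among those over 1000 bp the shares were 13.2% and 48.7%. By the smaller control score, 39.8% of the lowest quartile group and 7.06% of the highest quartile group were missing regions. Even so, 513 missing regions were over 1000 bp wide, and 202 lay in the highest quartile group of scores. The widest 5 all covered gene starts, those of UBQLN4 (2435 bp), which encodes a proteasome shuttle protein, NAA50 (2363 bp), an acetyltransferase gene, CEP170B (2266 bp), PPIL4 (2260 bp) and N4BP2 (2231 bp).

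**Figure D1:**
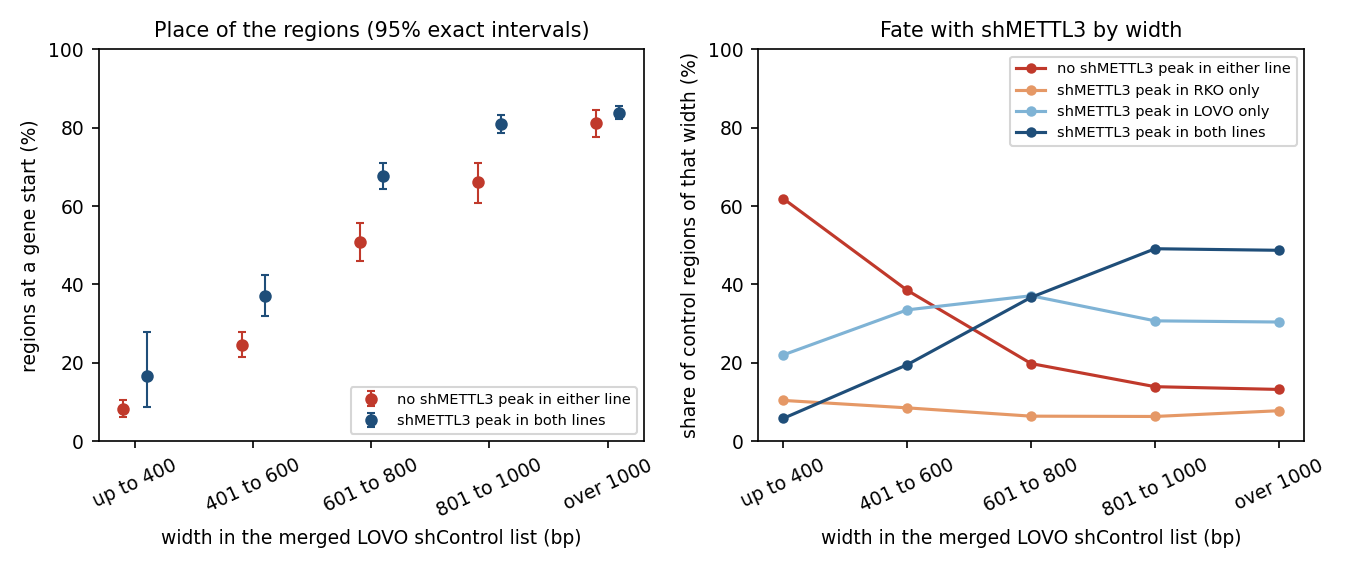
Left, share of regions at a gene start (%, with 95% exact intervals) by width class in bp, for the regions with no shMETTL3 peak in either line (red) and those with one in both lines (blue). Right, share of the control regions of each width (%) that fell into each of the 4 classes; regions with no shMETTL3 peak in either line made up 61.9% of the narrowest class and 13.2% of the widest, and in the left panel the red points lie below the blue ones in every class.

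Missing regions lay away from gene starts more often than kept ones. Of the 2687, 1087 (40.5%, 38.6 to 42.3) lay within 1000 bp of the start of a protein-coding gene (of either end, where the strand was not known), against 3235 of 4305 kept regions (75.1%, 73.8 to 76.4). A further 743 (27.7%, 26.0 to 29.4) lay elsewhere within a gene and 857 (31.9%, 30.1 to 33.7) between genes, against 13.4% and 11.4% of the kept regions. The 1600 missing regions away from gene starts lay at a median of 21.9 kb from the nearest gene start, close to the 21.6 kb of the 1070 such kept regions. Narrow regions were seldom at gene starts in either class, but the order held within each class of width: 8.10% of missing and 16.7% of kept regions up to 400 bp, 24.5% and 37.1% from 401 to 600 bp, 50.8% and 67.7% from 601 to 800 bp, 66.1% and 81.0% from 801 to 1000 bp, and 81.3% and 83.8% over 1000 bp. In the narrowest and the widest class the intervals of the 2 shares overlapped. The order also held within quartile groups of the score, with 53.5% of missing and 83.1% of kept regions in the lowest group and 11.9% and 67.4% in the highest.

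The strongest missing regions were mostly distal. Of the 10 with the highest smaller score, only that at PTTG1 covered a gene start. The top one, chr7:1579397-1579906, lies 9365 bp from the start of PSMG3, a proteasome assembly chaperone gene. With olaparib it scored 16.2 in LOVO shMETTL3, 18.1 in RKO shMETTL3 and 12.0 in RKO shControl, and had no peak in LOVO shControl. Its untreated shControl scores were 16.0 in LOVO and 15.8 in RKO. A peak absent from both untreated shMETTL3 lists was thus called in both shMETTL3 lists with olaparib. A region of 535 bp at chr6:148578077-148578611, whose nearest gene start is that of the sulfotransferase gene UST at 168419 bp, showed the same pattern, with scores of 25.6 in LOVO shMETTL3 and 25.2 and 21.3 in RKO shMETTL3 and shControl with olaparib. Its scores without drug were 17.2 and 15.6 in the LOVO and RKO shControl lists. The regions nearest SYT14, a synaptotagmin family gene, and SKIL, which encodes a repressor of SMAD signalling, likewise lacked a peak in LOVO shControl with olaparib only. The other 5, nearest GTF3C6, SLC2A6, HSPA12A, DCAF6 and AKAP10, had a peak in all 4 olaparib lists.

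The olaparib lists took no part in the choice of the regions, and most missing regions had a peak in them. In LOVO 2596 of 2687 (96.6%, 95.9 to 97.3) had one in shMETTL3 with olaparib and 2114 (78.7%, 77.1 to 80.2) in shControl with olaparib. In RKO these were 2606 (97.0%, 96.3 to 97.6) and 2509 (93.4%, 92.4 to 94.3). Of all 11453 control regions, 0.934% had no peak in LOVO shMETTL3 with olaparib, 6.69% none in LOVO shControl with olaparib, 1.15% none in RKO shMETTL3 with olaparib and 2.58% none in RKO shControl with olaparib. Missing regions were thus absent from the olaparib lists more often than control regions in general, and the kept regions had a peak there in at least 99.6% of cases in each list. The olaparib lists have the scored form and the untreated shMETTL3 lists the merged form, so in shMETTL3 cells the form of the list changed together with the drug and the 2 cannot be told apart. The selection also required a peak in the scored shControl lists, which have the same form as the olaparib lists.

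In both lines the share was higher in shMETTL3 than in shControl under olaparib, but the lists also differed in length. In LOVO the shMETTL3 list with olaparib holds 51462 intervals and the shControl one 32192, and in RKO 35455 and 25855. With each shMETTL3 list cut to as many of its highest-scoring intervals as the shControl list holds, 73.3% (71.6 to 75) of missing regions were met in LOVO and 83.6% (82.2 to 85.0) in RKO, both below the shControl shares of 78.7% and 93.4%. The kept regions were met in 98.3% and 97.7% of cases by the same shortened lists. The cut takes away the lowest-scoring intervals, and the median score of missing regions stood at percentile 54.0 and 58.0 of the full LOVO and RKO shMETTL3 lists, against 85.2 and 79.1 for kept regions. The part of list length in the order was not tested otherwise.

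**Figure D2:**
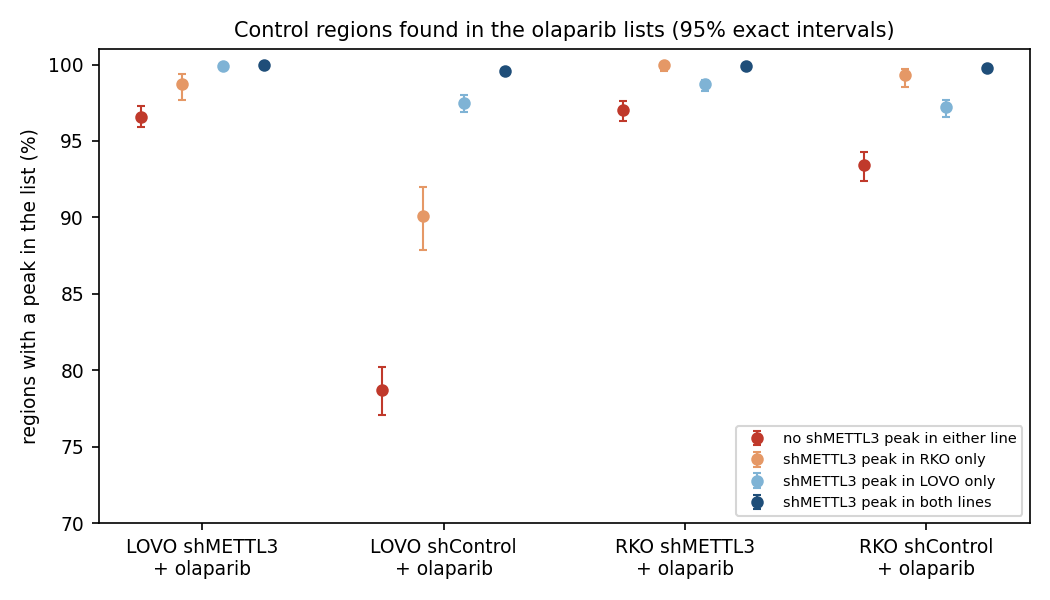
Share of the control regions (%, points with 95% exact intervals, axis from 70%) that had a peak in each of the 4 olaparib lists, by whether they had an untreated shMETTL3 peak in neither line, in RKO only, in LOVO only or in both. Regions with no shMETTL3 peak in either line had the lowest share in every list, and the lowest of these, 78.7%, was in LOVO shControl with olaparib.

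Taken region by region, 1947 missing regions (72.5%, against 99.3% of kept regions) had a peak in all 4 olaparib lists. The next most frequent pattern, in 437 (16.3%, against 0.395% of kept regions), was a peak in all but LOVO shControl with olaparib. Another 96 (3.57%, against 0.163% of kept regions) lacked one in RKO shControl with olaparib alone. In LOVO 506 (18.8%) had a peak in shMETTL3 but not in shControl and 24 (0.893%) the reverse; in RKO these were 151 (5.62%) and 54 (2.01%). Of all 11453 control regions, 6.06% and 0.306% differed in these ways in LOVO and 2.17% and 0.751% in RKO, and of the kept regions 0.395% and 0.0465% in LOVO and 0.163% and 0.0465% in RKO. The shMETTL3 lists with olaparib were the longer ones in each line. No kept region had a peak in both of them and in neither shControl list with olaparib, while 46 missing regions (1.71%) did. Among them, the region of 184 bp at chr14:58171204-58171387, nearest ARMH4, scored 19.3 in LOVO shMETTL3 and 19.7 in RKO shMETTL3 with olaparib, and 16.1 and 12.0 in the untreated LOVO and RKO shControl lists. The next strongest of the 46 lay nearest C6orf15 and CPSF6, which encodes a subunit of an mRNA 3′ end processing factor. Only 1 region had the opposite pattern, an interval of 854 bp at chr13:41019080-41019933, within a gene and nearest to the start of ELF1, an ETS factor gene, with scores of 6.36 in LOVO shControl and 6.04 in RKO shControl. There were 4 missing regions with no peak in any olaparib list, against 0 kept ones. Among the 4 were those nearest RSRC2, CLGN and ADAMTS13, with smaller control scores of 7.56, 6.75 and 6.64.

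How often a missing region was found under olaparib differed by place and width. At gene starts 99.1% (98.3 to 99.6) of missing regions had a peak in LOVO shMETTL3 and 93.1% (91.4 to 94.5) in LOVO shControl. Between genes the shares were 95.6% (94.0 to 96.8) and 69.1% (65.9 to 72.2), and in gene bodies 94.2% and 68.6%. In RKO the missing regions at gene starts were met in 98.5% and 96.1% of cases in shMETTL3 and shControl, and those between genes in 97.1% and 92.3%. The LOVO shControl list with olaparib met 53.7% of the missing regions up to 400 bp wide, 77.5% from 401 to 600 bp, 88.5% from 601 to 800 bp, 94.3% from 801 to 1000 bp and 96.1% of those over 1000 bp. In kept regions the share was at least 95.5% in every class of width. By score there was no such order in missing regions, with 80.7% of the lowest quartile group and 78.2% of the highest quartile group met.

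**Figure D3:**
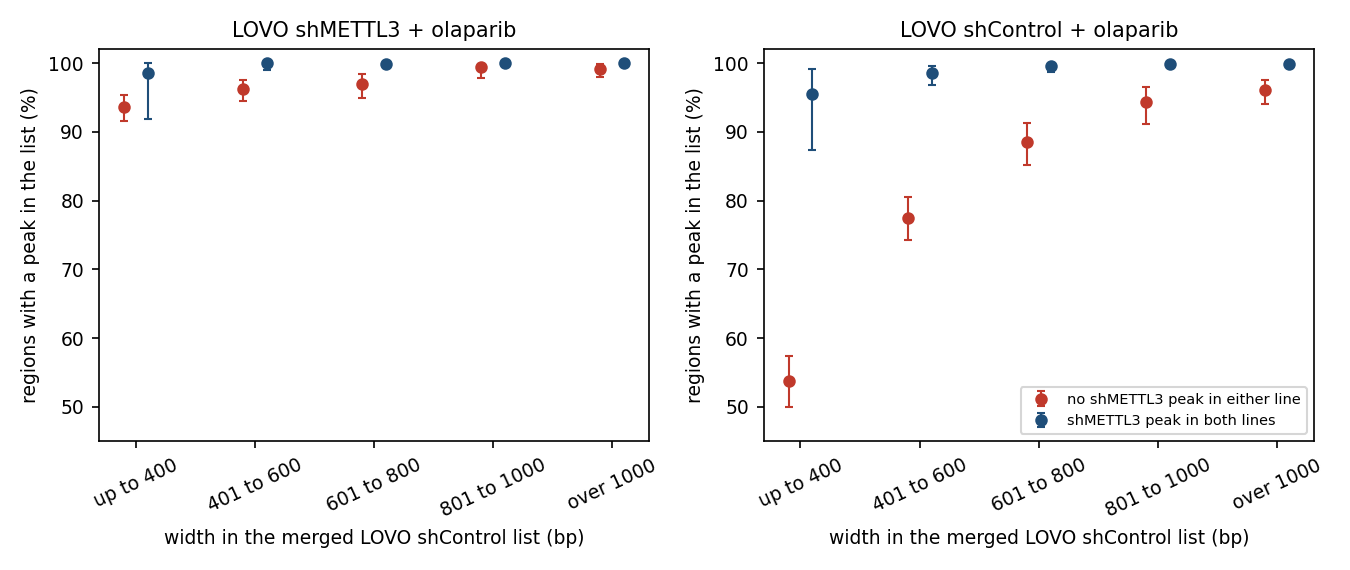
Share of regions (%, points with 95% exact intervals, axis from 45%) with a peak in LOVO shMETTL3 with olaparib (left panel) and in LOVO shControl with olaparib (right panel), by width class in bp, for regions with no untreated shMETTL3 peak in either line (red) and with one in both lines (blue). The red points in the right panel climb with width, with 53.7% in the narrowest class and 96.1% in the widest.

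The promoter windows on missing and kept regions had nearly the same base composition. The median GC content was 67.0% in the 886 windows on missing regions and 66.3% in the 2937 on kept regions, and the median ratio of observed to expected CpG was 0.866 and 0.861. Over the 21012 windows of all protein-coding genes the medians were 62.5% and 0.742. The windows differed in CCAATCA, which was found in 55 of 886 windows on missing regions (6.21%, 4.71 to 8.0), as in the PLK1 sequence shown, against 464 of 2937 on kept regions (15.8%, 14.5 to 17.2) and 7.81% of all windows. The shorter core CCAAT gave the same order, with 28.6% (25.6 to 31.7) of windows on missing regions, 50.4% (48.6 to 52.2) of those on kept regions and 34.4% of all. Put the other way round, 7.94% (6.03 to 10.2) of the 693 control regions on a window with CCAATCA were missing regions, against 15.8% (14.8 to 16.8) of the 5272 on a window without it.

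**Figure D4:**
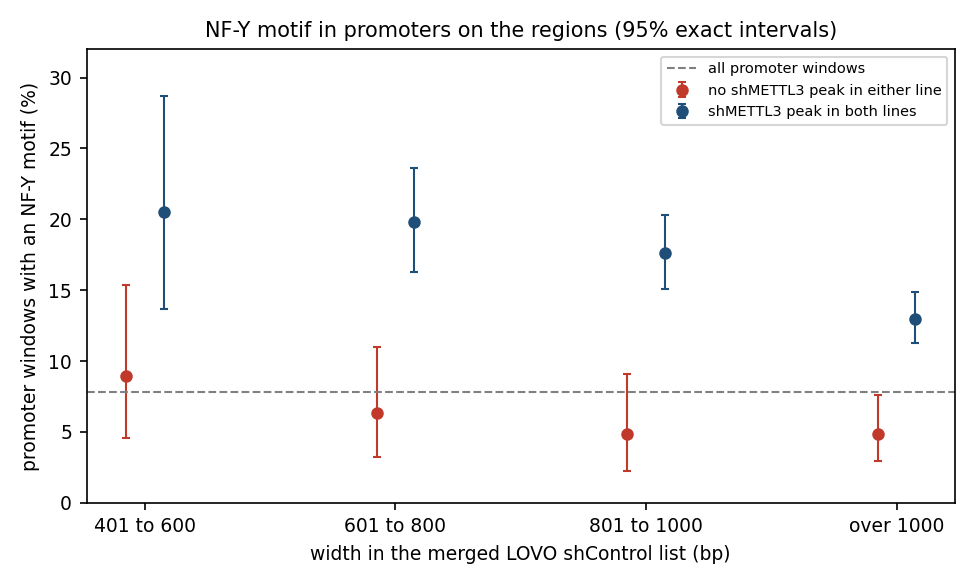
Share of promoter windows with CCAATCA (%, points with 95% exact intervals) by the width class, in bp, of the region they lie on, for regions with no untreated shMETTL3 peak in either line (red) and with one in both lines (blue); the dashed line is the 7.81% of all promoter windows. The class up to 400 bp is not drawn, since kept regions had too few windows in it; in the others the blue points lie between 13.0 and 20.5% and the red ones between 4.88 and 8.94%.

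The order held in each class of width above 400 bp, with 4.88 to 8.94% of windows on missing regions against 13.0 to 20.5% on kept ones. From 401 to 600 bp the 2 intervals overlapped (4.55 to 15.4 and 13.7 to 28.7). Up to 400 bp the motif was in 6 of 36 windows on missing regions (16.7%, 6.37 to 32.8), and kept regions had too few windows there to compare. Within quartile groups of the score the gap was smaller, with 4.15% against 8.56% in the lowest quartile group, 8.10% against 10.9% in the second and 9.65% against 13.2% in the third, and in each of these groups the 2 intervals overlapped. The highest group held too few windows on missing regions to compare. The score thus moved with the motif, and its part in the difference was not tested further. CCGGAAG was in 19.2% (16.6 to 21.9) of windows on missing and 23.7% (22.2 to 25.3) on kept regions, against 12.8% of all windows. Its order turned in the lowest quartile group of the score, with 19.4% (16.0 to 23.1) of the 506 windows on missing and 17.4% (13.7 to 21.6) of the 374 on kept regions. GGGCGG, the GC box of SP and KLF factors, was in 75.1% (72.1 to 77.9) and 79.7% (78.2 to 81.2), against 56.5%. From 401 to 600 bp its order turned, with 70.7% of windows on missing and 68.9% on kept regions. Of the 15 motifs searched on both strands, AGATAA, the motif of zinc finger factors of the GATA family, went the other way, with 4.74% (3.44 to 6.35) of windows on missing and 2.72% (2.17 to 3.38) on kept regions, against 7.92% of all. Its order turned from 601 to 800 bp, with 2.87% of windows on missing and 3.30% on kept regions. TGACGTCA, as in the CCNA2 window, was in 4.18% of windows on missing and 3.68% on kept regions, with overlapping intervals, against 2.30% of all windows. The intervals of missing and kept regions also overlapped for the other 10 motifs, in which N is any base. TGANTCA (AP-1) was in 4.18%, 3.64% and 6.09% of windows on missing regions, on kept regions and of all genes. In the same order, CCANNAGNG (the core of the CTCF site) was in 16.7%, 17.3% and 17.9%, GCATGCGC in 6.77%, 5.38% and 3.61%, and AAGATGGC in 6.55%, 5.58% and 3.51%. CACGTG (the E-box) was in 9.03%, 11.2% and 8.22%, GGAATG (TEAD) in 10.4%, 8.95% and 12.2%, and TGTGGT (RUNX) in 7.22%, 8.24% and 11.2%. CAAAGTCC (HNF4), TGTTTAC (FOX) and ATCAAAG (TCF and LEF) were in 1.35%, 2.14% and 0.451% of windows on missing regions, in 0.749%, 1.87% and 0.851% on kept regions and in 1.14%, 2.86% and 1.94% of all. CCAAT lies within CCAATCA, and none of the 15 contains another. A match is a string of letters and not a bound site. Sequence of the distal missing regions was not analysed here.

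A missing region lay at the start of 1237 of the 7915 protein-coding genes that had a control region there (15.6%). For 1164 of the 1237 (94.1%) no untreated shMETTL3 interval of either line lay anywhere within 1000 bp of the start, which the rule largely fixes. For 1196 (96.7%) both shMETTL3 lists with olaparib had one. Kept regions at gene starts had a peak in 100% of cases in the LOVO list and 99.9% in the RKO one. The same shares over all 7915 genes were not computed. In 21 lists of related genes, 50 of 288 genes with such a control region had a missing one (17.4%), close to the 15.6% of all genes. Both figures rest on the contrast that chose the regions, so they describe which genes are in the set and nothing more. Among lists with at least 9 such genes, the highest share was that of receptor tyrosine kinases and their ligands (5 of 10, 18.7 to 81.3%). Next came the YAP and TEAD pathway (5 of 13, 13.9 to 68.4%), TGF-beta signalling (4 of 11, 10.9 to 69.2%) and Wnt targets and regulators (3 of 9, 7.49 to 70.1%). These intervals are wide. Lists with no member were end joining of DNA breaks (0 of 15) and actin and adhesion (0 of 13), where a count of 0 allows a share of up to 21.8% and 24.7%. Of the 50 genes, 7 share their region with the start or promoter window of another protein-coding gene, among them HNRNPA2B1 (with CBX3), GEN1 (with SMC6), EME1 (with MRPL27), IRF3 (with BCL2L12) and RSAD2 (with CMPK2), so that these regions cannot be given to 1 gene. For 6 genes, DNA2, FOS, TEAD2, TEAD4, ARHGEF17 and SPI1, the region lies within 1000 bp of a point taken as the gene's start. It holds neither that point nor the gene's window. Of these genes, TEAD2, TEAD4 and ARHGEF17 count toward the share of the YAP and TEAD list. Where the strand was not known either gene end was taken as a start, so some of these regions may lie at the 3′ end.

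**Figure D5:**
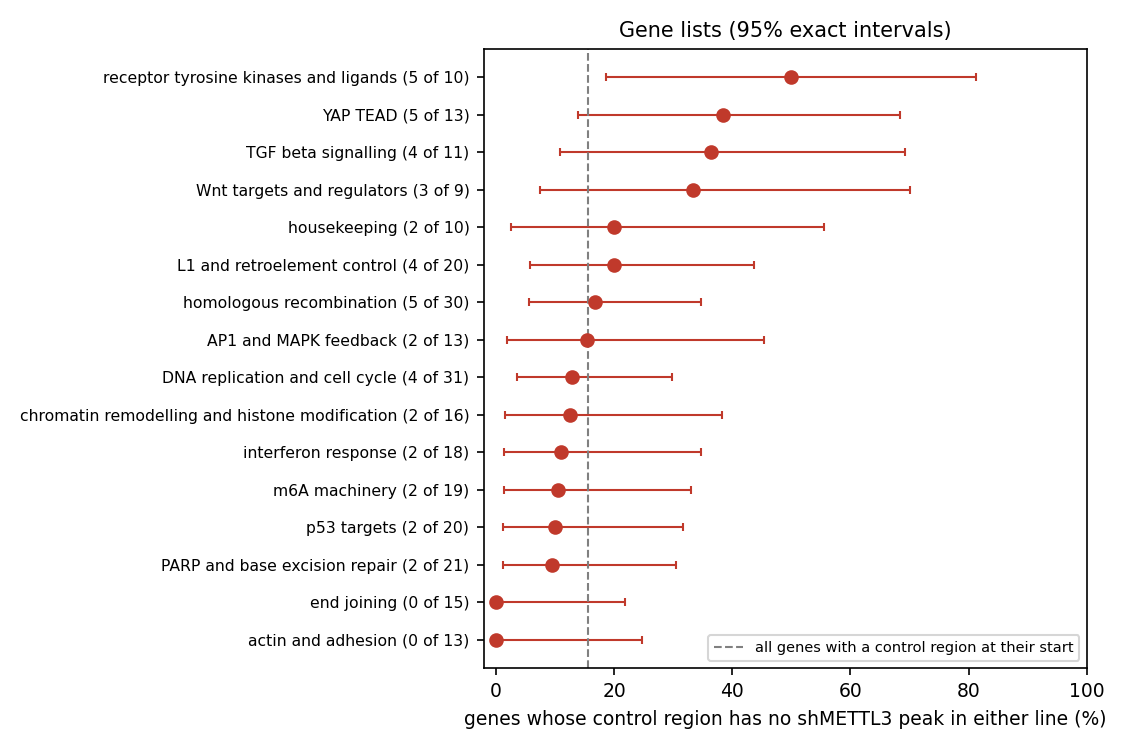
Share of the genes with a control region at their start (%, points with 95% exact intervals) whose region had no untreated shMETTL3 peak in either line, for the 16 lists with at least 9 such genes; the dashed line is the 15.6% of all genes. The points run from 0% for end joining and for actin and adhesion to 5 of 10 genes for receptor tyrosine kinases and ligands, and the intervals are wide.

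Receptors and ligands formed the first group. At INSR, the insulin receptor gene, the olaparib lists had intervals of 397 bp in LOVO shMETTL3, 225 bp in LOVO shControl, 464 bp in RKO shMETTL3 and 361 bp in RKO shControl. Without the drug no shMETTL3 interval was found, against 1079 bp in LOVO and 802 bp in RKO in the merged shControl lists. In the scored shControl lists, which have the form of the olaparib lists, the widths were 340 bp in LOVO and 326 bp in RKO. The start was thus open by peak calls in every list but the 2 of untreated shMETTL3. ERBB3, a receptor that pairs with ERBB2, had a peak in all 4 olaparib lists and merged shControl intervals of 2086 bp in LOVO and 1315 bp in RKO. FGFR1 and FGFR2, receptor genes for fibroblast growth factors, also had a peak in each olaparib list. AREG, which encodes the EGF receptor ligand amphiregulin, had intervals of 409 bp in LOVO shMETTL3, 386 bp in LOVO shControl and 635 bp in RKO shMETTL3 with olaparib and none in RKO shControl with olaparib.

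In Wnt signalling the missing regions lay at CTNNB1, which encodes the transcriptional effector beta-catenin, LRP6, a Wnt co-receptor gene, and EPHB3, a receptor gene activated by Wnt in intestinal crypts. With olaparib the CTNNB1 start had intervals of 566 bp in LOVO shMETTL3, 587 bp in LOVO shControl, 597 bp in RKO shMETTL3 and 486 bp in RKO shControl. Its merged shControl intervals were 856 bp wide in LOVO and 564 bp in RKO, and its scored shControl intervals 670 and 408 bp. The olaparib widths lay close together, and the nearest untreated shMETTL3 interval lay 38761 bp away in LOVO and 745428 bp away in RKO. In the YAP and TEAD list they lay at TEAD2 and TEAD4, genes of the DNA-binding partners of YAP, at SAV1, a Hippo pathway scaffold gene, at PTPN14, a phosphatase gene whose product holds YAP back, and at ARHGEF17. The TEAD2 region lies 996 bp from that gene's start and covers the promoter window of DKKL1. The TEAD4 region of 515 bp lies 652 bp from an annotated end of the gene, which may not be its start. It had no peak in LOVO shControl with olaparib. In the TGF-beta list they lay at SMAD4, the common mediator of the pathway, its inhibitors SMAD6 and SMURF2, and the receptor gene BMPR1A. The SMAD4 region of 1635 bp held scored intervals of 679 bp in LOVO shMETTL3 with olaparib and 598 bp in LOVO shControl with olaparib, and of 240 and 1248 bp in the same groups of RKO.

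Among the genes that restrain retroelements, 4 of 20 had a missing region. SETDB1 encodes a methyltransferase of histone H3 lysine 9 that silences repeats. With olaparib its start scored 12.5 in LOVO shMETTL3 and 9.37 in LOVO shControl, and 6.36 in RKO shMETTL3 and 5.15 in RKO shControl. The untreated shControl scores were 15.4 in LOVO and 4.29 in RKO. The nearest untreated shMETTL3 interval lay 48945 bp away in LOVO and 49046 bp in RKO, while the merged shControl intervals on the start were 740 and 498 bp wide. DNMT1, the maintenance DNA methyltransferase gene, had scores of 11.9 and 12.1 in LOVO shMETTL3 and shControl with olaparib and of 8.52 and 6.73 in RKO. The others were MOV10, an RNA helicase gene that limits LINE1 activity, and RNASEH2B, a subunit gene of the nuclease that removes RNA from DNA hybrids. All 4 had a peak in each olaparib list. The list is close to the subject of the series, and its share, 4 of 20 (5.73 to 43.7%), stands beside the 15.6% of all genes.

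In the m6A list 2 of 19 genes had a missing region (10.5%, 1.30 to 33.1), beside the 15.6% of all genes. They were PCIF1, whose product methylates the cap-adjacent adenosine of mRNA, and HNRNPA2B1, whose product binds m6A-bearing RNA. The PCIF1 region was 1767 bp wide in LOVO and 1838 bp in RKO in the merged shControl lists, yet the scored shControl intervals in it spanned 167 and 195 bp. HNRNPA2B1 had intervals of 932 bp in LOVO shMETTL3, 1197 bp in LOVO shControl and 339 bp in RKO shMETTL3 with olaparib, and none in RKO shControl with olaparib. The writer gene METTL3 itself is not in the set.

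In DNA repair the missing regions lay at 5 of 30 homologous recombination genes (16.7%, 5.64 to 34.7), beside the 15.6% of all genes. Of those reported here, RAD54L encodes a DNA translocase that acts in strand exchange, DNA2 a nuclease of end resection, and GEN1 and EME1 belong to enzymes that resolve joined DNA molecules. The RAD54L region of 1871 bp held intervals of 1083 and 1029 bp in LOVO shMETTL3 and shControl with olaparib, and of 738 and 879 bp in RKO. All 5 had a peak in each olaparib list. HPF1, the cofactor through which PARP1 modifies serine, and NEIL3, a DNA glycosylase gene, were the 2 of 21 in the PARP and base excision repair list (9.52%, 1.17 to 30.4). RFC1, which encodes a subunit of the clamp loader, was the 1 of 7 in mismatch repair (14.3%, 0.361 to 57.9). It had no peak in RKO shControl with olaparib.

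Replication and cell cycle genes had a missing region in 4 of 31 cases, at CCNA2, AURKB, PLK1 and BUB1, the last 3 being genes of mitotic kinases. The widths at AURKB lay close together, with scored intervals of 829 bp in LOVO shMETTL3 and 898 bp in LOVO shControl with olaparib, of 860 and 848 bp in RKO, and of 993 and 803 bp in untreated LOVO and RKO shControl. CCNA2 scored 13.8 and 12.5 in LOVO shMETTL3 and shControl with olaparib and 11.8 and 9.85 in RKO, against 10.4 and 8.92 in untreated LOVO and RKO shControl. The other lists, beside the 15.6% of all genes, were p53 targets (BAX and ZMAT3, 2 of 20), interferon response (IRF3 and RSAD2, 2 of 18), chromatin remodelling and histone modification (KAT2A and HDAC2, 2 of 16), AP-1 and MAPK feedback (FOS and ETV4, 2 of 13) and housekeeping genes (GUSB and PSMB2, 2 of 10). IRF3, which encodes a factor that switches on interferon genes, and KAT2A, a histone acetyltransferase gene, had no peak in RKO shControl with olaparib and one in each of the other 3 olaparib lists.

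Markers of cell identity were few in the control lists. Of 26 intestinal epithelial markers, 11 had an open start in the merged LOVO shControl list and 7 in the RKO one, against 4 and 5 of 17 mesenchymal, 3 and 4 of 15 leukocyte and 4 and 4 of 15 neuronal markers. Missing regions lay at the epithelial genes HNF4G and GATA6, transcription factors of the gut (2 of the 6 with a control region at their start). By the same count they lay at ZEB1 (1 of 2 mesenchymal genes), SPI1 (1 of 3 leukocyte genes) and DLX2 (1 of 1 neuronal gene). The SPI1 region lies 244 bp from an annotated end of that gene, which may not be its start. The share of all genes was 15.6%, and these counts are too small to set against it. An open start does not show that a gene is expressed, so these markers check the labelled cell type only loosely.

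The missing regions were scattered. They lay on all 22 autosomes, and the share of control regions that were missing ran from 18.4% (15.5 to 21.5) on chromosome 12 to 28.6% (25.2 to 32.3) on chromosome 17. The median distance between neighbours was 343 kb, against 210 kb for the 4305 kept regions, which are more numerous. Of the genes with a missing region assigned to them within 50 kb, 1980 had 1, 124 had 2 and 8 had 3. Those reported here were CDH24, FADS3, H2BC13, MICAL3, PAXIP1, PTMA and WNT7B. At CDH24, FADS3, H2BC13, MICAL3 and PAXIP1 the 3 were every control region assigned to the gene, while PTMA had 4 and WNT7B had 5. Assignment is by distance alone: the CDH24 region at 13835 bp is the one on the ACIN1 window shown above. PAXIP1 encodes a protein that joins DNA damage signalling to histone methyltransferase complexes. Its region of 2190 bp covers a gene end that counts as its start, and had a peak in all 4 olaparib lists. A region of 1037 bp, 14182 bp from the gene's other end, did so too. Another, of 463 bp and 29551 bp from that other end, had none in LOVO shControl with olaparib. The WNT7B set holds the 2 missing regions that share 1 merged RKO interval of 1654 bp. Reads from the histone gene H2BC13 can map to near-identical relatives, so the calls there are uncertain.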

How the data were processed

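Per the labels, LOVO and RKO cells were profiled by ATAC-seq with a commercial library kit. The submitters' processing notes name the build hg38 and, without roles, DiffBind 3.0.15, MACS2 2.2.7.1, Bowtie2 2.4.2 and Trim Galore 0.6.6. How reads, duplicates and the transposase offset were handled is not stated in the labels. The 10 deposited peak lists are the authors' calls: 4 hold merged intervals only, and 6 hold intervals with a score for each peak, whose MACS2 column is not stated. Which untreated shControl list the second batch went into is not stated either. No count, coverage or depth is in the lists, so depth and its effect on the number of peaks are unknown, and the number of replicates behind a list is not stated. The peak names of the scored lists all carry replicate 1.

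Overlaps of at least 1 bp were computed in Python 3.11.15 (pandas 2.3.3, scipy 1.17.1), checked against bedtools 2.31.1 and tested on simulated data. Where several intervals lay on a region, the widest width and the highest score were used. Intervals of shares are 95% Clopper-Pearson intervals. Gene positions are from RefSeq on GRCh38.p14: a region was at a gene start when within 1000 bp of it, with the strand known for 15842 of 20037 protein-coding genes and either end used for the other 4195. Exons, introns and untranslated parts were not told apart. Distances to genes and assignments (within 50 kb) use the nearest such point. No genome was used, so only promoter windows have sequence. No comparison was tested, since each group has 1 list of a form.

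Regions, gene lists and motifs were chosen with earlier results of these data known. Genes were named by rule: list genes with a missing region (up to 6 per list), the 10 genes with most regions, the 10 highest and 5 widest regions, and the 3 highest of each olaparib pattern. Alternatives changed the overlap, the control lists, the score, the width and the gene window. Some genes that these rules select are not reported here.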

Additional observations from a re-analysis of the deposited data

How the results depend on the processing

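No paired analysis was possible because no result comes from a test: the scored lists name replicate 1 alone and the merged lists name none; leaving out a replicate was not possible either. The number of missing regions was 2687, 1554 with 50% overlap required, 4685 with merged shControl lists only, 726 with both control scores above their list's median, 2771 from the RKO intervals and 2653 with no shMETTL3 peak within 500 bp. The last 2 moved no share by more than its counting interval. In the order 50% overlap, merged lists only, scores above the median and regions of at least 500 bp, the share with a peak was 84.1, 90.8, 98.3 and 98.3% in LOVO shMETTL3 with olaparib, 62.2, 67.4, 80.9 and 90.6% in LOVO shControl with olaparib, 91.4, 87.3, 99.0 and 98.0% in RKO shMETTL3 with olaparib, and 89.6, 77.8, 95.3 and 95.2% in RKO shControl with olaparib, and the share at gene starts 36.6, 34.2, 24.5 and 60.1%. Under each of these the share was higher in shMETTL3 than in shControl. Lists of equal length, an alternative chosen after seeing the data, gave 73.3% in LOVO shMETTL3 and 83.6% in RKO shMETTL3 and turned that order. The share at gene starts was 44.6% within 2500 bp and, also chosen later, 42.7% with either gene end. The median width was 502 bp with 50% overlap, 509 bp with merged lists only, 506 bp from the RKO intervals and 485 bp above the median score. List genes with a missing region numbered 50, and 54 within 2500 bp. The share of windows with the NF-Y motif was 6.22% with 1 bp covered and 28.6% for CCAAT, both added later. The depth behind a list limits what a missing peak can show, and was unknown.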

Other observations

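Of 1454 autosomal miRNA hairpins in RefSeq, 54 lay wholly inside the 11453 control regions and 9 of these inside missing regions. Missing regions made up 23.5% of the control regions, and the count of hairpins is read from the contrast that chose them. Of the 1600 missing regions away from the annotated gene starts, 170 (10.6%, 9.16 to 12.2) lay on another RefSeq promoter window, coding or not, against 370 of 1070 such kept regions (34.6%, 31.7 to 37.5).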
